A study of Danio rerio with 2 samples.

Results

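The 8 genes described here encode proneural and neuronal transcription factors of the basic helix-loop-helix (bHLH) class in the zebrafish, Danio rerio. They are neurod1, neurod4, neurod6b, neurog1, ascl1a, ascl1b, olig2 and olig4. They were taken by name from the spots of a microarray, under their own symbol for 5 genes and under an older one for 3, and they account for 16 of 43803 spots and 8 of 35959 genes or transcripts. On the array, neurod1 is written neurod, neurod6b is written atoh2b and olig4 is written olig3. The gene called olig3 today stands on the same array under the separate name LOC566728, which is why the rows written olig3 were read as olig4. This reading was inferred from the names and was not checked against probe sequences. The 8 genes were selected on these same log2 ratios of MO2-ers2a over MO-control at 48 and 8 hours, so their values below are descriptions and none was tested.

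The compared embryos carried the MO2-ers2a morpholino or the MO-control morpholino, each given to eggs at 10.3 ng per embryo. A morpholino is an antisense oligonucleotide, and MO2-ers2a was made to stop translation of the mRNA of estrogen receptor beta2, the gene now named esr2a. Embryos of both kinds were sampled at 48 and at 8 hours post fertilization (hpf), the embryo near hatching and the gastrula. RNA of MO2-ers2a embryos was labelled with Cy5 and RNA of MO-control embryos with Cy3, and both were put on 1 array per time. With no repeat and no dye swap among these arrays, an effect of the dye on a gene cannot be told apart from an effect of the morpholino, no value has a replicate error and no p-value could be had. The labels name no transgene or mutant strain and do not say how many embryos were pooled. A blocked translation need not change the amount of the target mRNA, and the 2 esr2a spots did not exceed background in both channels at either time, so the knockdown could not be checked here.

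bHLH factors bind DNA as pairs, usually with a broadly expressed E protein, at short sites called E-boxes. In the vertebrate nervous system, neurog and ascl genes act early and commit progenitors to the neuronal fate, and they turn on Notch ligands that hold neighbouring cells back through her and hes repressors. The neurod genes act later, in cells that are leaving the cycle and maturing as neurons, and the olig genes mark ventral spinal cord progenitors and the oligodendrocyte lineage or other neural territories. Id proteins lack the DNA-binding part, capture E proteins and so inhibit the class.

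A spot counted as measured when its signal over local background exceeded a limit in both channels, set from 153 negative control spots at their mean plus 2.6 SD. At 48 hpf the Cy5 limit was 27.7 units and the Cy3 limit 70.1, and at 8 hpf they were 24.4 and 59.9. Of all spots, 47.9% were measured at 48 hpf and 44.4% at 8 hpf. Each value is a log2 ratio of MO2-ers2a over MO-control after loess normalization, so it is set against the bulk of genes on that array, and positive values stand for a stronger MO2-ers2a signal. Spots sharing a gene differed by a pooled SD of 0.24 (48 hpf) and 0.32 (8 hpf) in log2 ratio. This is spread within an array. It may hold differences between probes as well as technical noise, because repeats of 1 probe and different probes could not be told apart. Scaling without loess moved the median of all measured spots by 0.39 at 48 hpf and 0.57 at 8 hpf when all spots were the centre, and by -0.06 and -0.57 when spike-in probes were.

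All 8 genes were measured at 48 hpf and 6 of them at 8 hpf. At 48 hpf the late factors neurod1, neurod4 and neurod6b were all lower in MO2-ers2a embryos than in MO-control embryos, and the early factors neurog1, ascl1a and ascl1b were all higher. The late factors had a median of -1.12 and the early factors one of 0.67, a difference of -1.79 on the log2 scale (3 genes each). The 2 sets did not overlap: the highest late value was -0.43 and the lowest early value 0.47. Without loess and with all spots as the centre, neurod4 stood at 0.13 and the other 5 kept their side of 0. The difference between the medians was -1.73 without loess, a value that the choice of centre cannot change. Of the 8 genes, 2 were at least 2-fold lower and 0 at least 2-fold higher at 48 hpf, where 1.25% of 16616 measured genes were 2-fold lower, 1.25% were 2-fold higher and 2.49% were one or the other. In the authors' deposited table the same 2 of 8 were 2-fold lower and 0 higher, with 4.73% of all genes lower, 2.92% higher and 7.65% past 2-fold either way. These ratios chose the genes, so nothing is read from that count or from the lack of overlap between the late and early sets. The arrays measured whole embryos, in which fewer cells of a type and less RNA per cell cannot be told apart.

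**Figure D1:**
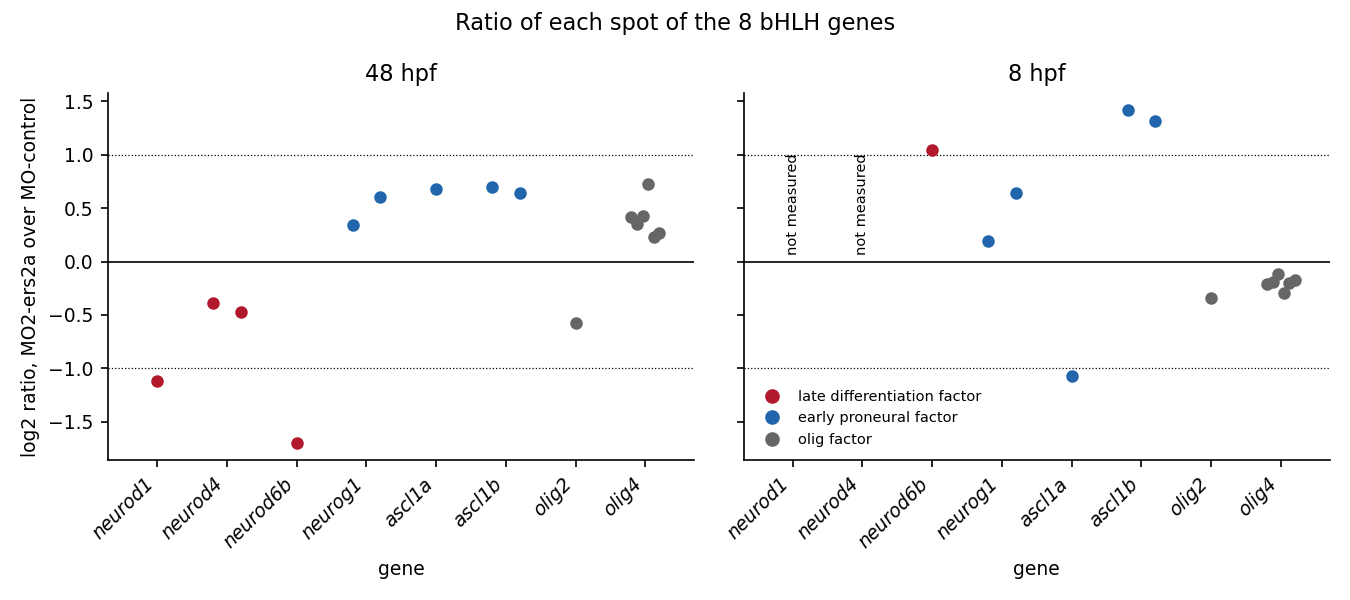
Log2 ratio of MO2-ers2a over MO-control for each measured spot of the 8 genes, at 48 hpf (left) and 8 hpf (right); each point is 1 spot and dotted lines mark 2-fold. At 48 hpf all spots of the late factors lie below 0 and all spots of the early factors above it; neurod1 and neurod4 were not measured at 8 hpf.

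Among the late factors, neurod6b, which in the mammalian brain marks maturing excitatory neurons of the forebrain, had the lowest ratio. Its single spot had a log2 normalized intensity of 11.16 in MO2-ers2a embryos, against 12.86 in MO-control embryos at 48 hpf. That is a log2 ratio of -1.70, or 3.25-fold lower, and the 32nd lowest of 16616 measured genes. The authors' deposited table gave -1.76 for the same spot, and the lowest and highest value over 8 other ways of processing were -1.76 and -1.12. MO2-ers2a embryos were below MO-control embryos in each of these, though settings that only choose among spots cannot change a single spot.

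neurod1, which acts in differentiating neurons, photoreceptors and endocrine pancreas cells, was the next lowest. Its single spot had a log2 normalized intensity of 13.20 in MO2-ers2a embryos, against 14.32 in MO-control embryos at 48 hpf. The log2 ratio was -1.12, or 2.17-fold lower, and it was the 129th lowest value on the array. It was under 2-fold in the 3 scalings without loess, with -0.86 when centred on measured spots, -0.92 on spike-in probes and -0.47 on all spots.

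neurod4, a neuronal differentiation factor in frog and mouse, differed less. Its 2 spots had log2 normalized intensities of 9.98 and 12.58 in MO2-ers2a embryos, against 10.36 and 13.06 in MO-control embryos at 48 hpf. Their log2 ratios were -0.39 and -0.47, with a median of -0.43. Both spots lay on the same side of 0 although they differed in brightness, and 12.5% of measured genes had a lower ratio.

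The early factor ascl1a, an achaete-scute gene that is also known from zebrafish retina regeneration, was on the opposite side. Its single spot had a log2 normalized intensity of 13.60 in MO2-ers2a embryos, against 12.91 in MO-control embryos at 48 hpf. The log2 ratio of 0.68, or 1.61-fold higher, was the 622nd highest. Its paralog ascl1b, also a proneural gene, had nearly the same ratio. The 2 ascl1b spots had intensities of 12.47 and 12.47 in MO2-ers2a embryos, against 11.77 and 11.83 in MO-control embryos. Their log2 ratios were 0.70 and 0.64, with a median of 0.67, or 1.59-fold higher, and in the authors' deposited table the median was 0.67 as well.

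neurog1, needed for primary neurons and cranial sensory ganglia, had the smallest ratio of the early factors. Its 2 spots had intensities of 10.22 and 11.33 in MO2-ers2a embryos, against 9.88 and 10.72 in MO-control embryos at 48 hpf. The log2 ratios were 0.34 and 0.61, with a median of 0.47, which is 1.39-fold higher. None of the early factors reached 2-fold at 48 hpf, except that all 3 did so without loess when all spots were the centre, up to 1.31 for ascl1a.

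The 2 olig genes went opposite ways at 48 hpf. olig2, which specifies motor neurons and oligodendrocytes, had a log2 intensity of 11.35 in MO2-ers2a embryos, against 11.92 in MO-control embryos. Its log2 ratio was -0.58, or 1.49-fold lower, and came to -0.01 without loess when all spots were the centre. The 6 olig4 spots had a median intensity of 9.79 in MO2-ers2a embryos, against 9.48 in MO-control embryos. They had log2 ratios of 0.23 to 0.73 with a median of 0.38, all above 0. The olig4 spot with the ratio of 0.73 was also the dimmest of the 6. The array spot of olig3 itself, a dorsal neural tube factor, had a log2 ratio of 0.86.

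**Figure D2:**
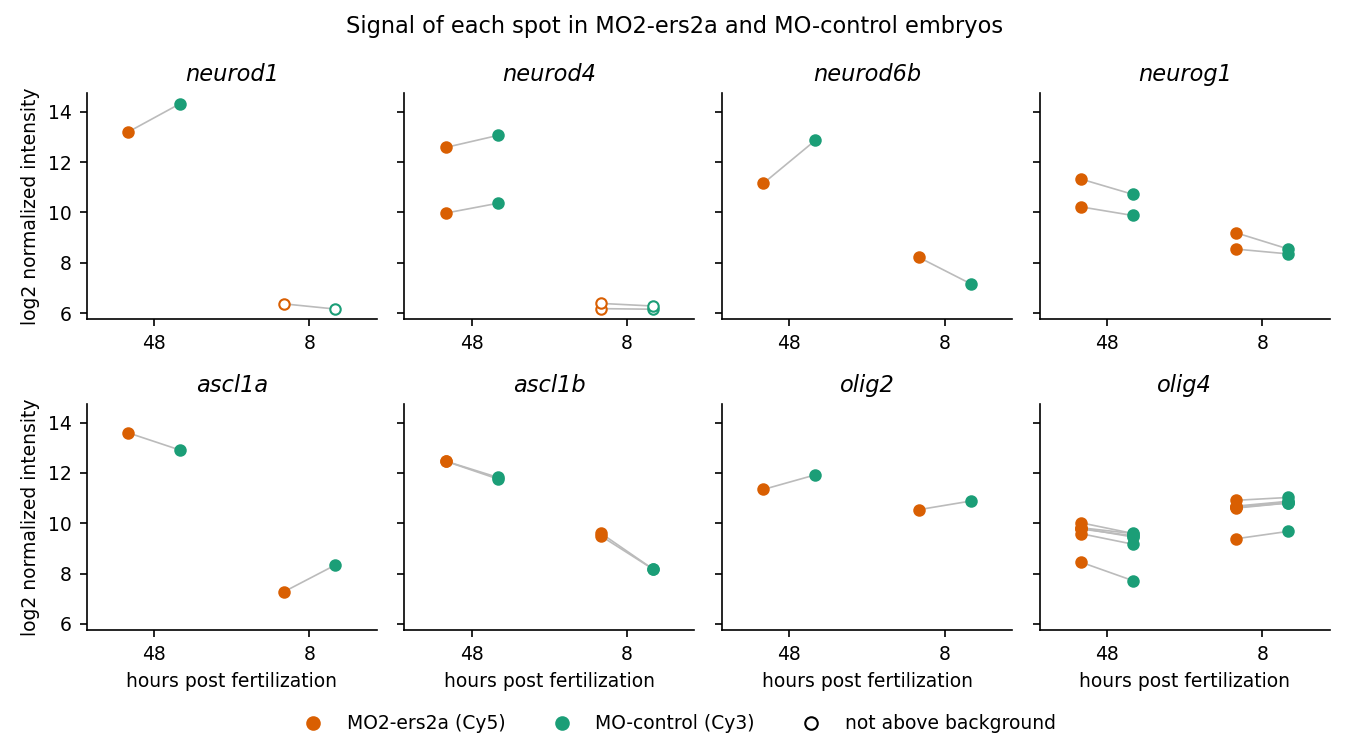
Log2 normalized intensity of each spot of the 8 genes in MO2-ers2a embryos (orange) and MO-control embryos (green), at 48 and 8 hpf; lines join the channels of 1 spot and open points were not above background in that channel. The neurod1 and neurod4 spots are bright at 48 hpf and at background at 8 hpf in both kinds of embryo, and the lines of neurod6b and ascl1a slope opposite ways at the 2 times.

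At 8 hpf a comparison by role rested on neurod6b alone for the late factors. The other late factors, neurod1 and neurod4, were not above background in either channel. Of the 6 measured genes, ascl1b and neurod6b were at least 2-fold higher and ascl1a at least 2-fold lower in MO2-ers2a embryos. Over the whole array at 8 hpf, 2.29% of 15342 measured genes were 2-fold higher, 2.26% were 2-fold lower and 4.54% were one or the other. In the authors' deposited table the same 3 genes were past 2-fold in the same directions, with 4.58% of all genes higher, 6.72% lower and 11.3% past 2-fold either way. The early factors thus stood on both sides of 0 at this time. These ratios also chose the genes, so nothing is read from the count of 3.

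ascl1b had the largest ratio at 8 hpf as processed here, while in the authors' deposited table neurod6b was higher (1.93 against 1.60). Its 2 spots had log2 normalized intensities of 9.60 and 9.49 in MO2-ers2a embryos, against 8.18 and 8.18 in MO-control embryos. The log2 ratios of 1.42 and 1.31 gave a median of 1.36, or 2.58-fold higher, the 144th highest of 15342 genes. It was between 0.82 and 1.95 over the other ways of processing, and under 2-fold at the lower end, without loess and centred on spike-in probes.

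neurod6b and ascl1a were dim at 8 hpf. The neurod6b spot had 272.5 units over background in MO2-ers2a embryos, against 66.0 in MO-control embryos, where the limit in Cy3 was 59.9. Its log2 ratio of 1.05 therefore rests on a control signal just above background, and under a filter of 2 times the limits it was not measured. The authors' deposited table gave 1.93, and the value was 0.30 without loess when centred on spike-in probes. The ascl1a spot had 113.5 units in MO2-ers2a embryos, against 188.5 in MO-control embryos. Its log2 ratio was -1.07, or 2.10-fold lower. The authors' deposited table gave -1.76, and without loess it was -1.79 when centred on spike-in probes and -0.66, under 2-fold, when centred on all spots.

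The other 3 measured genes differed less at 8 hpf. The 2 neurog1 spots had log2 intensities of 8.54 and 9.19 in MO2-ers2a embryos, against 8.35 and 8.55 in MO-control embryos. Their log2 ratios were 0.19 and 0.64 with a median of 0.41, which was -0.16 without loess when centred on spike-in probes. olig2 had an intensity of 10.54 in MO2-ers2a embryos, against 10.88 in MO-control embryos, a log2 ratio of -0.34. The 6 olig4 spots ran from -0.29 to -0.11 with a median of -0.20. Both olig genes came to lie above 0 without loess when all spots were the centre, at 0.36 and 0.51.

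**Figure D3:**
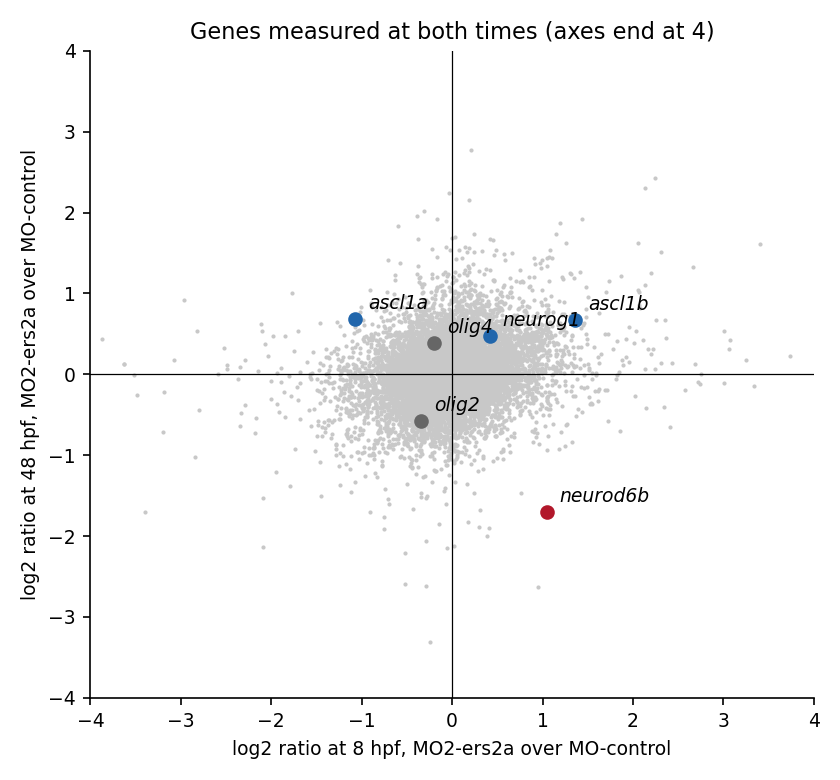
Log2 ratio of MO2-ers2a over MO-control at 48 hpf (vertical) and 8 hpf (horizontal) for 13165 genes measured at both times (grey), with the 6 such bHLH genes in colour (red late, blue early, dark grey olig); 3 genes lie beyond the axes. neurod6b stands alone among the 6 in the lower right, below 0 at 48 hpf and above 0 at 8 hpf.

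Over the 6 genes measured at both times, 3 lay on opposite sides of 0 at the 2 times, where 43.4% of all 13165 genes measured at both did so. For neurod6b the log2 ratio was -1.70 at 48 hpf and 1.05 at 8 hpf, a change of -2.75, and 0.281% of genes differed by 4-fold or more in this direction between the times. It was the 1 gene of 13165 (0.0076%) that was 2-fold lower at 48 hpf and 2-fold higher at 8 hpf, and 1 of 2 (0.0152%) that were past 2-fold in opposite directions. The members were selected on these ratios, so nothing is read from such shares. With its control signal just above background at 8 hpf, neurod6b was not measured there under the filter of 2 times the limits. These placings do not hold under every scaling: without loess the 8 hpf ratio was 0.86 when centred on measured spots and 0.30 on spike-in probes, both under 2-fold, and the change was -1.86, under 4-fold, on spike-in probes. For ascl1a the ratio was 0.68 at 48 hpf and -1.07 at 8 hpf, a change of 1.75. Of the 13165 genes, 0.737% were, like ascl1a, above 0 at 48 hpf and 2-fold lower at 8 hpf, a placing that ascl1a loses when all spots are the centre. For olig4 the medians over its 6 spots, which are not replicates of a time, were 0.38 and -0.20. Without loess and with all spots as the centre they were 0.86 at 48 hpf and 0.51 at 8 hpf, both above 0. The ratios of neurog1, ascl1b and olig2 differed between the times by 0.06, -0.69 and -0.24 and stayed on 1 side of 0. Without loess and centred on spike-in probes these differences were 0.71, -0.0044 and 0.31. The arrays were normalized separately and share their dye orientation.

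Levels within each kind of embryo were set across the 2 arrays after scaling them to a common intensity distribution. The neurod1 signal was at least 113.6-fold higher at 48 hpf than at 8 hpf in MO2-ers2a embryos, against at least 204.4-fold in MO-control embryos, with 8 hpf at the detection floor. For the brighter neurod4 spot the bounds were 73.4-fold in MO2-ers2a embryos and 85.3-fold in MO-control embryos. For the dimmer neurod4 spot they were 12.5-fold and 13.2-fold. Both late factors were thus bright at 48 hpf and at background at 8 hpf in both kinds of embryo. neurod6b was measured at both times and was 7.69-fold higher at 48 hpf than at 8 hpf in MO2-ers2a embryos, against 51.8-fold in MO-control embryos. ascl1a was 80.1-fold higher at 48 hpf than at 8 hpf in MO2-ers2a embryos, against 23.7-fold in MO-control embryos. On the log2 scale the 2 ascl1b spots were 2.87 and 2.98 higher at 48 hpf in MO2-ers2a embryos, against 3.58 and 3.65 in MO-control embryos. The gain in signal between the times was smaller in MO2-ers2a embryos for neurod6b and ascl1b and larger for ascl1a. This restates the changes of log2 ratio given above and is no separate result. For neurod6b it rests on a control signal just above background at 8 hpf. For ascl1b the change of ratio was -0.0044 without loess and centred on spike-in probes. olig4 was the 1 member with less signal at the later time: its 6 spots were 1.72-fold to 2.08-fold lower at 48 hpf than at 8 hpf in MO2-ers2a embryos, against 2.32-fold to 3.88-fold in MO-control embryos. The olig3 spot differed from the olig4 spots in this, with a control level 0.93 higher on the log2 scale at 48 hpf.

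Relatives of the 8 genes were described by lists drawn up with earlier results of these data known. Of 10 other neural bHLH genes on the array, 9 were measured at 48 hpf, 5 below 0 and 4 above, with a median of -0.52 against -0.02 for all measured genes (0.07 without loess when all spots were the centre, and -0.23 under the stricter filter). The lowest were neurod6a at -1.58, the paralog of neurod6b, and neurod2 at -1.16, a factor of forebrain neurons. bhlhe23, at -1.08, was also 2-fold lower. The highest were atoh1b at 0.97, a proneural gene of hair cells and of the cerebellum, and olig3. With these, all 5 neurod genes matched by name on the array were below 0 at 48 hpf and 4 were 2-fold lower, where 52.1% of all measured genes were below 0 and 1.25% were 2-fold lower. The array name neurodg1 matched no gene and was left out. Of the 5, neurod1, neurod4 and neurod6b had been selected on these ratios, and neurod2 and neurod6a were listed with earlier results known. Nothing is therefore read from these counts. The count of 4 does not hold without loess, where neurod1 was under 2-fold in each of the 3 scalings (-0.86, -0.92 and -0.47), and neurod4 lay above 0 when all spots were the centre. neurod2 was dim, with 41 units over background in MO2-ers2a embryos against 149 in MO-control embryos, and bhlhe23 had 71 against 177. Under the stricter filter neurod2 was not measured, so the count of 4 does not hold there either. In the authors' deposited table neurod2 was at -2.80. At 8 hpf only olig3 at 0.99 and nhlh2 at -0.62 were measured.

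Of 4 E protein genes listed as dimer partners, 2 were found on the array, and both were near 0 after loess. These genes, tcf12 and tcf3b, were at 0.16 and -0.24 at 48 hpf, and at 0.23 and -0.15 at 8 hpf. Without loess and centred on all spots, tcf3b was at 0.39 at 48 hpf and 0.72 at 8 hpf. Centred on spike-in probes, tcf12 was at -0.28 at 8 hpf. Their closeness to 0 thus depends on the scaling. Among the 5 Id genes, id1 was the one past 2-fold. It had a log2 intensity of 13.30 in MO2-ers2a embryos, against 11.78 in MO-control embryos at 48 hpf, a log2 ratio of 1.52 or 2.86-fold higher. At 8 hpf it had 13.83 in MO2-ers2a embryos, against 11.53 in MO-control embryos, which is 4.94-fold higher; each value is from 1 spot. The other Id genes at 48 hpf were id3 at 0.04, id2b at -0.05, id2a at -0.45 and id4 at -0.84. At 8 hpf they were id3 at 0.46, id4 at 0.26, id2b at 0.14 and id2a at -0.22. Of these, id2a and id2b (48 hpf) and id2a (8 hpf) lay above 0 without loess when all spots were the centre, and id2b and id4 (8 hpf) below 0 when spike-in probes were.

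Notch ligands, which act between neighbouring cells, and her or hes repressors lay on the side of the early factors at 48 hpf. All 10 measured genes of 11 on the array were above 0, with a median of 0.55, where 47.9% of all measured genes were above 0. All measured genes of the list were also above 0 under each of the 8 other ways of processing. Settings that only choose among spots cannot change a gene with 1 spot, such as her2, her4.2, her6, her9 and her12. This list and the progenitor markers below were chosen with earlier results of these data known, so nothing is read from their counts. her2 was 2.22-fold higher and her9 was at 0.70, while dlb, at 0.11, and dlc, at 0.28, were the lowest. Besides dlb and dlc, the Notch ligand genes of the list were dld at 0.48 and dla at 0.45. The 3 dla spots ran from 0.19 to 0.46. At 8 hpf, 6 of 11 were above 0, led by her12 at 1.46 and dlb at 0.76, with her9 at -0.53 and her4.2 at -0.28 the lowest. That count was 3 of 11 without loess when centred on spike-in probes and 11 of 11 when centred on all spots. Among neural progenitor markers, 4 of 6 were above 0 at 48 hpf, with sox19b at 1.25 and sox3 at 0.58 the highest and pax6b at -0.58 and pax6a at -0.19 the lowest. At 8 hpf sox19b was at 1.30 and sox2 at 0.38, with pax6b at -0.24 and sox19a at -0.15. Without loess and with all spots as the centre, pax6a and pax6b at 48 hpf and pax6b and sox19a at 8 hpf lay above 0.

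**Figure D4:**
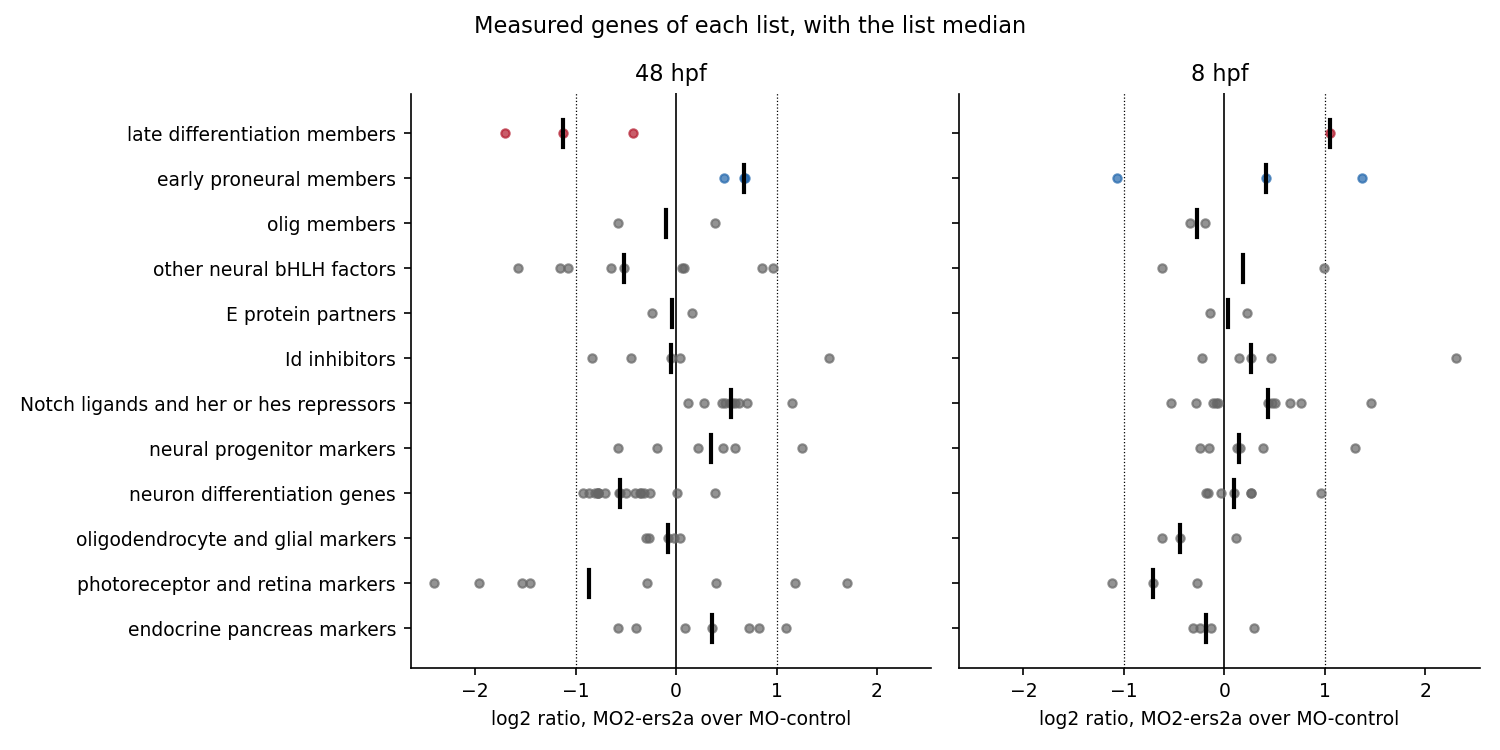
Log2 ratio of MO2-ers2a over MO-control for each measured gene (point) of 12 lists at 48 hpf (left) and 8 hpf (right), with the median of each list as a black bar and dotted lines at 2-fold. At 48 hpf the late factors and neuron differentiation genes have medians of -1.12 and -0.55, and the early factors and the Notch list medians of 0.67 and 0.55.

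Genes of neuronal differentiation lay on the side of the late factors at 48 hpf. Of 17 measured, 15 were below 0 and 0 were past 2-fold, with a median of -0.55, where 52.1% of all measured genes were below 0. Without loess and with all spots as the centre, 9 of 17 were below 0 and the median was -0.04. The late factors were selected on these ratios, and this list was drawn up with earlier results known. Nothing is therefore read from these counts. The lowest were stxbp1a at -0.93, of synaptic vesicle fusion, and sncb at -0.86, a synuclein. insm1b at 0.39, a zinc finger factor of neuronal and endocrine precursors, and ebf2 at 0.01 were the 2 above 0. At 8 hpf 7 were measured, led by sncb at 0.97 and insm1b at 0.26, with isl1a at -0.18 and snap25a at -0.16 the lowest.

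Because neurod1 is also active in the retina and the endocrine pancreas, and the olig genes in glial precursors, markers of these cells were set beside them; their part in the ratios above was not tested. Of 8 photoreceptor and retina markers measured at 48 hpf, 5 were below 0, where 52.1% of all measured genes were. Their median was -0.87, which was -1.65 in the authors' deposited table and -1.49 under the stricter filter. Of these markers, 4 were 2-fold lower and 2 were 2-fold higher, where 1.25% of all measured genes were 2-fold lower and 1.25% 2-fold higher. The markers were listed with earlier results of these data known, so nothing is read from these counts. crx, the photoreceptor homeobox gene, was 5.30-fold lower and vsx1, of bipolar cells, 3.89-fold lower, while gnat2 was 3.26-fold and rx1 2.28-fold higher, both of these with 1 of their 2 spots measured. Endocrine pancreas markers had a median of 0.36 over 7 genes (0.04 without loess when centred on spike-in probes), with gcga 2.14-fold higher and pdx1 at 0.82, both with 1 of their 2 spots measured, against pax6b at -0.58 and sst1.1 at -0.40. Oligodendrocyte and glial markers had a median of -0.08 over 5 genes, from fabp7a at -0.30 and sox10 at -0.27 to gfap at -0.02 and plp1a at 0.04, and cspg4 was not measured; the glial median was 0.42 without loess when all spots were the centre. At 8 hpf the markers were mostly dim. The lowest retina genes measured were nr2e3 at -1.12 and otx5 at -0.71, and the glial genes measured were sox10 at -0.62, fabp7a at -0.45 and nkx2.2a at 0.12. Of the pancreas genes pdx1 was at 0.30, gcga at -0.14, pax6b at -0.24 and sst1.1 at -0.31, with gcga at 1.69 in the authors' deposited table.

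For each of the 6 genes measured at both times, the nearest genes were sought among 7595 others with an assigned symbol. The distance was taken over 3 values: the log2 ratio at 48 hpf, that at 8 hpf and the difference of the MO-control level between the times. olig4 was nearest to znrd2 (distance 0.07) and rffl (0.08), olig2 to phgdh (0.08) and slc37a4a (0.10), and neurog1 to mycb (0.11) and cntfr (0.17). ascl1b was nearest to sox21a (0.48) and rnasekb (0.57), and ascl1a to cacna1sb (0.51) and trim101 (0.58). For neurod6b the nearest genes, gnao1b and mat1a, were 1.23 and 1.30 away, the largest of these distances. Its ratio at 8 hpf and its level difference both rest on a control signal just above background at 8 hpf. The members were selected on the ratios that enter the distance, so nothing is read from its size. With 3 values from 2 arrays, likeness here is no more than a description.

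**Figure D5:**
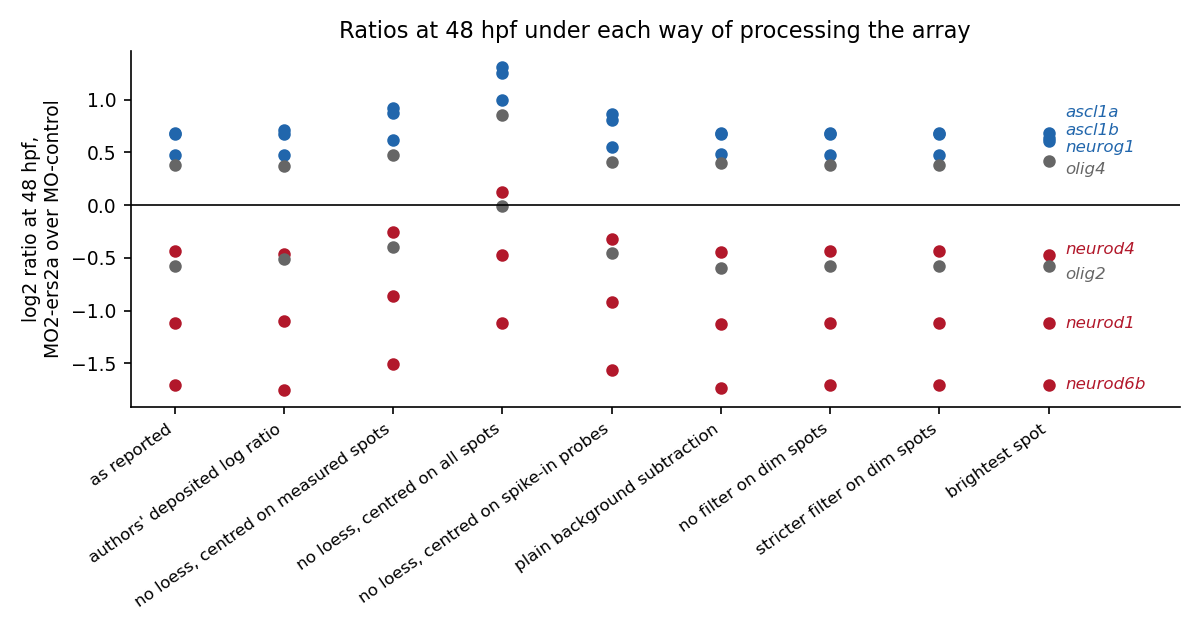
Log2 ratio of MO2-ers2a over MO-control at 48 hpf for each of the 8 genes (red late, blue early, grey olig) as reported and under 8 other ways of processing the array. The 3 early factors lie above the 3 late factors in each, an order that the choice of centre cannot change, among genes selected on these ratios. With all spots as the centre and no loess every gene is shifted upwards, neurod4 to 0.13.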

How the data were processed

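Each scanner file held intensity, the median Cy5 and Cy3 signals and local backgrounds of every spot, per the file headers, and came from Agilent Feature Extraction, per the submitters' processing notes. The version and the way dyes were normalized were not found in the labels. The authors' deposited table of log10 ratios was joined by spot number. Among bright spots (6347 at 48 hpf, 6545 at 8 hpf) it followed the raw log2 Cy5/Cy3 ratio with r of 0.989 and 0.981 and slopes of 0.301 and 0.292, so it is log10 of Cy5 over Cy3. Its column medians were 0, and values of exactly 0 were taken as not measured. Here the normexp background correction of limma 3.58.1 (R 4.3.3), with an offset of 50, was followed by loess within each array with control spots at weight 0, and by Aquantile for levels across arrays. The background correction and loess were tested on simulated data with changes placed only in brighter spots. Dim spots, such as those of neurod6b and ascl1a at 8 hpf, were not covered by that test. Several measured spots of a gene were reduced to their median; of the named genes, tcf3b, sox10, gcga and pdx1 at both times, dlc, gnat2 and rx1 at 48 hpf, and dlb and sncb at 8 hpf had only part of their spots measured. Names were updated through RefSeq symbols of GRCz12tu, for names only: 6938 spots matched a current symbol, 13537 an older name or ID, 138 several genes and 23190 none.

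Members and gene lists were chosen with earlier results of these data known. Named genes are every member, the 2 highest and 2 lowest measured genes of each other list at each time, and the 2 nearest genes by pattern. Outside this rule, bhlhe23, dla, dld, cspg4, id2b at 48 hpf and id4 at 8 hpf were named after their values were seen, and 1 gene within it is not reported here. A bound for a spot at background is taken against the higher of its own level and the lowest measured level.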

Additional observations from a re-analysis of the deposited data

Results flagged for a closer look

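Of the 6 genes measured at both times, 3 had log2 ratios on opposite sides of 0 at 48 and 8 hpf, and with 1 array per time these differences were not tested. neurod6b changed by -2.75 between the times (48 minus 8 hpf), with its 8 hpf value resting on a control signal just above background. ascl1a changed by 1.75, also from 1 spot, and olig4 by 0.58, with 6 spots at each time; without loess and with all spots as the centre its 8 hpf ratio was above 0, at 0.51. The same kind of change of side was seen in 43.4% of the 13165 genes measured at both times.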

How the results depend on the processing

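With 1 array per time, a value was taken to have moved when it shifted by more than the pooled SD between spots, and a count when it changed by over 1.5 times. Of 111 values of the 8 genes under 8 other ways of processing, 107 kept their side of 0 and 25 moved. Many of the 111 could not move, so these counts overstate stability. Changing the filter on dim spots left every member value it kept unchanged. Taking the brightest spot changes nothing for neurod1, neurod6b, ascl1a and olig2, which have 1 spot each. The difference between late and early medians at 48 hpf stayed between -1.80 and -1.73. The choice of centre cannot change this difference, so the scalings without loess share the value of -1.73. Changing the filter on dim spots left it as reported, since every spot of these genes passed. At 8 hpf, where it rests on neurod6b alone for the late factors, it was 0.63, and moved to 1.45 with the authors' deposited log ratio, 0.97 with plain background subtraction and -0.21 with no filter on dim spots, which adds neurod1 and neurod4; the stricter filter leaves no late factor. Genes at least 2-fold higher at 48 hpf numbered 207, against 484 with the authors' log ratio and 1252 centred on all spots. Genes 2-fold lower there numbered 207, against 783 with the authors' log ratio, 434 centred on measured spots, 84 on all spots, 565 on spike-in probes and 525 with plain subtraction. At 8 hpf 351 were higher, against 701 with the authors' log ratio, 2482 centred on all spots and 122 on spike-in probes. At 8 hpf 346 were lower, against 1030 with the authors' log ratio, 632 centred on measured spots, 96 on all spots, 3306 on spike-in probes and 597 with plain subtraction. The cause was not tested. No paired analysis was possible because each time has 1 array. At 8 hpf low signal over background limits neurod6b, which the stricter filter removes.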
